A study of Mus musculus with 12 samples.

Results

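The 7 genes described here encode the mouse CDK inhibitors, the small proteins that hold cyclin-dependent kinases in check. They are Cdkn1a, Cdkn1b and Cdkn1c of the CIP and KIP family, and Cdkn2a, Cdkn2b, Cdkn2c and Cdkn2d of the INK4 family. They were taken by symbol as those rows of a deposited expression table whose Ensembl identifier maps to one of these names, which gave 7 of 35275 genes. All 7 were read in all 12 libraries.

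The libraries hold RNA of hematopoietic stem cells sorted by flow cytometry from C57BL/6 mice, in 4 groups of 3 libraries. The groups were Thpo-/- mice (the knockout, which lacks thrombopoietin) given Romiplostim, Thpo+/+ mice (the wild type) given Romiplostim, untreated knockout mice and untreated wild-type mice. Romiplostim, an agonist that mimics thrombopoietin, was given by the intravenous route at 100 µg/kg per day over 10 days, and the protocol names PBS for the controls although their label reads untreated. The labels give neither the age or sex of the mice nor the number behind a library, so the p-values measure the spread between libraries only, which may be technical. The 3 libraries of each group were placed on a run together, and effects of the run and of the group cannot be told apart.

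Progress through the cell cycle depends on cyclins that switch on their partner kinases. INK4 proteins bind Cdk4 and Cdk6 and keep D-type cyclins from activating them, while CIP and KIP proteins bind whole cyclin and kinase complexes, chiefly those of Cdk2. The kinases phosphorylate the retinoblastoma protein, which releases E2F factors and with them the genes of DNA synthesis. Most adult hematopoietic stem cells rest outside the cycle, and thrombopoietin signalling is known to support that rest.

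Stem cell markers were detected in every library, but their levels differed between groups. The summed level of 16 stem cell markers was 2735 to 4839 FPKM in treated knockout, 5402 to 7803 FPKM in treated wild-type, 611 to 809 FPKM in untreated knockout and 5653 to 6406 FPKM in untreated wild-type libraries (FPKM, fragments per kilobase of gene scaled to library depth). A single gene, Ifitm1, weighs heavily in these sums. Its mean was 3049 FPKM in treated knockout, 5582 in treated wild type, 198 in untreated knockout and 4471 in untreated wild type. Procr, the protein C receptor that marks long-term stem cells, averaged 85.0 ± 36.0 FPKM in treated knockout, 99.7 ± 16.2 in treated wild type, 18.9 ± 2.92 in untreated knockout and 141 ± 10.3 in untreated wild type (SD, n = 3 each). Between untreated knockout and untreated wild type, 13 of 16 of these markers were lower in the knockout and 0 higher (median log2 change -1.57). Markers of other cells moved the other way in that comparison: 11 of 11 tested B cell genes, 10 of 10 macrophage genes, 12 of 14 myeloid genes, 8 of 13 erythroid genes and 9 of 9 tested stromal and endothelial genes were higher in the knockout, and 0 of them lower. The summed B cell list reached 1816 to 4360 FPKM in untreated knockout libraries, against 88.0 to 98.8 FPKM in untreated wild-type libraries, and the macrophage list 1224 to 3321 FPKM in untreated knockout, against 72.5 to 107 FPKM in untreated wild type. In treated knockout libraries the B cell list stood at 99.0 to 674 FPKM and the macrophage list at 111 to 161 FPKM. No listed B cell or macrophage gene was at 0 in all 3 libraries of either knockout group or of untreated wild type. In treated wild type this held for the macrophage list, and 1 B cell gene, Pax5, was at 0 in all 3. Among further lists in the same comparison, T and NK cell genes were higher at 7 of 8 and lower at 0, mast cell and basophil genes higher at 7 of 9 and lower at 2, and megakaryocyte genes higher at 0 of 9 and lower at 3. The part of other cells in the results below was not tested. In such bulk samples, fewer cells of a type and less RNA per cell cannot be told apart. Thpo itself was at 0 in 10 of 12 libraries and at most 0.0426 FPKM, so it does not check the genotype labels in these cells. The estimated depth was 27.7 to 35.5 M fragments per library (M, 10 to the power of 6), and 11262 to 12374 genes reached 1 FPKM. Y-linked genes were near 0 in all 3 treated knockout libraries (summed level up to 0.156 FPKM) and clearly present in all 3 untreated knockout libraries (45.2 to 99.6 FPKM). The sex of the mice, read this way, was mixed in the other groups, with 1 of 3 libraries near 0 in each.

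The promoters of Cdkn1a, Cdkn2c and Cdkn2d are shown here. These are the 3 members that were lower with Romiplostim in the knockout at an adjusted p under 0.05. Each window runs from 250 bases before to 50 after a RefSeq transcript start (build GRCm38.p6), is written 5′ to 3′ on the strand of the gene, and has in capitals every GC box, searched as GGGCGG on either strand. The Cdkn1a window, the downstream of a pair, lies at chr17:29093519-29093818 on the plus strand. The Cdkn2c window, the upstream of its pair, lies at chr4:109666707-109667006 on the minus strand. The Cdkn2d window lies at chr9:21291160-21291459 on the minus strand.
Cdkn1a: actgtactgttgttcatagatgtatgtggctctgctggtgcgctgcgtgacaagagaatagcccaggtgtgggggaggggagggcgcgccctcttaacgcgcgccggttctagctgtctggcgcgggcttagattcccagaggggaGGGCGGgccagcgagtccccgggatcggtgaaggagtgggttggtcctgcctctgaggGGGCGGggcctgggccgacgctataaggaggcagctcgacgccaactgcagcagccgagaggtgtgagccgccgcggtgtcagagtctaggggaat
Cdkn2c: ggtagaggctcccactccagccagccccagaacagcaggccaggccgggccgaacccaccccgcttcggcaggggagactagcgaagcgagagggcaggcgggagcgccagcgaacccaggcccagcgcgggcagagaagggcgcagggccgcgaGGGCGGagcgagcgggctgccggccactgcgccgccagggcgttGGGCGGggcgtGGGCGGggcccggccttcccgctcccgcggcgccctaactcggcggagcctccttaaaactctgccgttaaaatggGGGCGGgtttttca
Cdkn2d: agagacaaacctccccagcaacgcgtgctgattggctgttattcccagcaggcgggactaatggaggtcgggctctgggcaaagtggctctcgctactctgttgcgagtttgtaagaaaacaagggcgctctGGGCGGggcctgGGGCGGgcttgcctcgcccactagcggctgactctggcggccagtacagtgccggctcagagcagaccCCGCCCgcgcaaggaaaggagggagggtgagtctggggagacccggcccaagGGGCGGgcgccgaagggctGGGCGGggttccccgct

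The 3 windows shown had 64.7% G and C for Cdkn1a, 73.3% for Cdkn2c and 66.3% for Cdkn2d. The other window of each pair, not shown, had 54.7% for Cdkn1a and 44% for Cdkn2c and holds no GC box. A likeness of the 3 in these features thus depends on which windows are shown. Counted from the start site as base 1, with negative positions before it, GC boxes begin at -104 and -46 in the Cdkn1a window. They begin at -95, -51, -40 and 37 in that of Cdkn2c, and at -118, -106, -38, 15 and 34 in that of Cdkn2d, where the box at -38 is on the opposite strand. GC boxes were found in 35.7% of 32851 windows of the same length over all genes. All member windows hold them except the other ones of Cdkn1a and Cdkn2c, a larger share, and this difference was not tested. They are not particular to the members that fell. Windows of Cdkn1b, Cdkn2a and Cdkn2b, which did not pass that test or were not tested, hold them too. The site bound by STAT5, a factor activated downstream of thrombopoietin and searched as TTCNNNGAA, is in none of the 9 windows found for 6 of the 7 members, against 8.30% of all windows. An E2F site (any of TTTGGCGC, TTTCGCGC, TTTCCCGC and TTTGCCGC) is in 1 window, that of Cdkn2a, against 2.26% of all windows. A CCAAT box is in windows of Cdkn1b, Cdkn2a, Cdkn2c and Cdkn2d, against 37.4% of all windows. No forkhead site (TGTTTAC, 3.65% of all windows) or GATA site (AGATAA, 11.2%) was found, and an E-box (CACGTG, 7.15%) stands only in the other Cdkn2c window. All motifs were searched on both strands, none overlaps another in the windows shown, and a match or its absence describes these letters only.

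Among the members, the levels covered a wide range, and FPKM allows the comparison since it is scaled to gene length. Cdkn2d was highest, at 39.4 to 125 FPKM, and made up 53.5% to 69.7% of the summed FPKM of the 7 genes in each library. Cdkn1a, Cdkn1c and Cdkn2c lay in the middle, with medians over the 12 libraries of 17.1, 13.3 and 10.7 FPKM. Cdkn1b was low but present in all libraries (median 3.42 FPKM), and Cdkn2a and Cdkn2b were at the limit of detection. The summed FPKM of all 7 was 64.3 to 120 in treated knockout, 137 to 149 in treated wild-type, 136 to 195 in untreated knockout and 126 to 206 in untreated wild-type libraries. All 3 treated knockout libraries thus had the least CDK inhibitor RNA in sum, and the other groups overlapped each other.

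**Figure D1:**
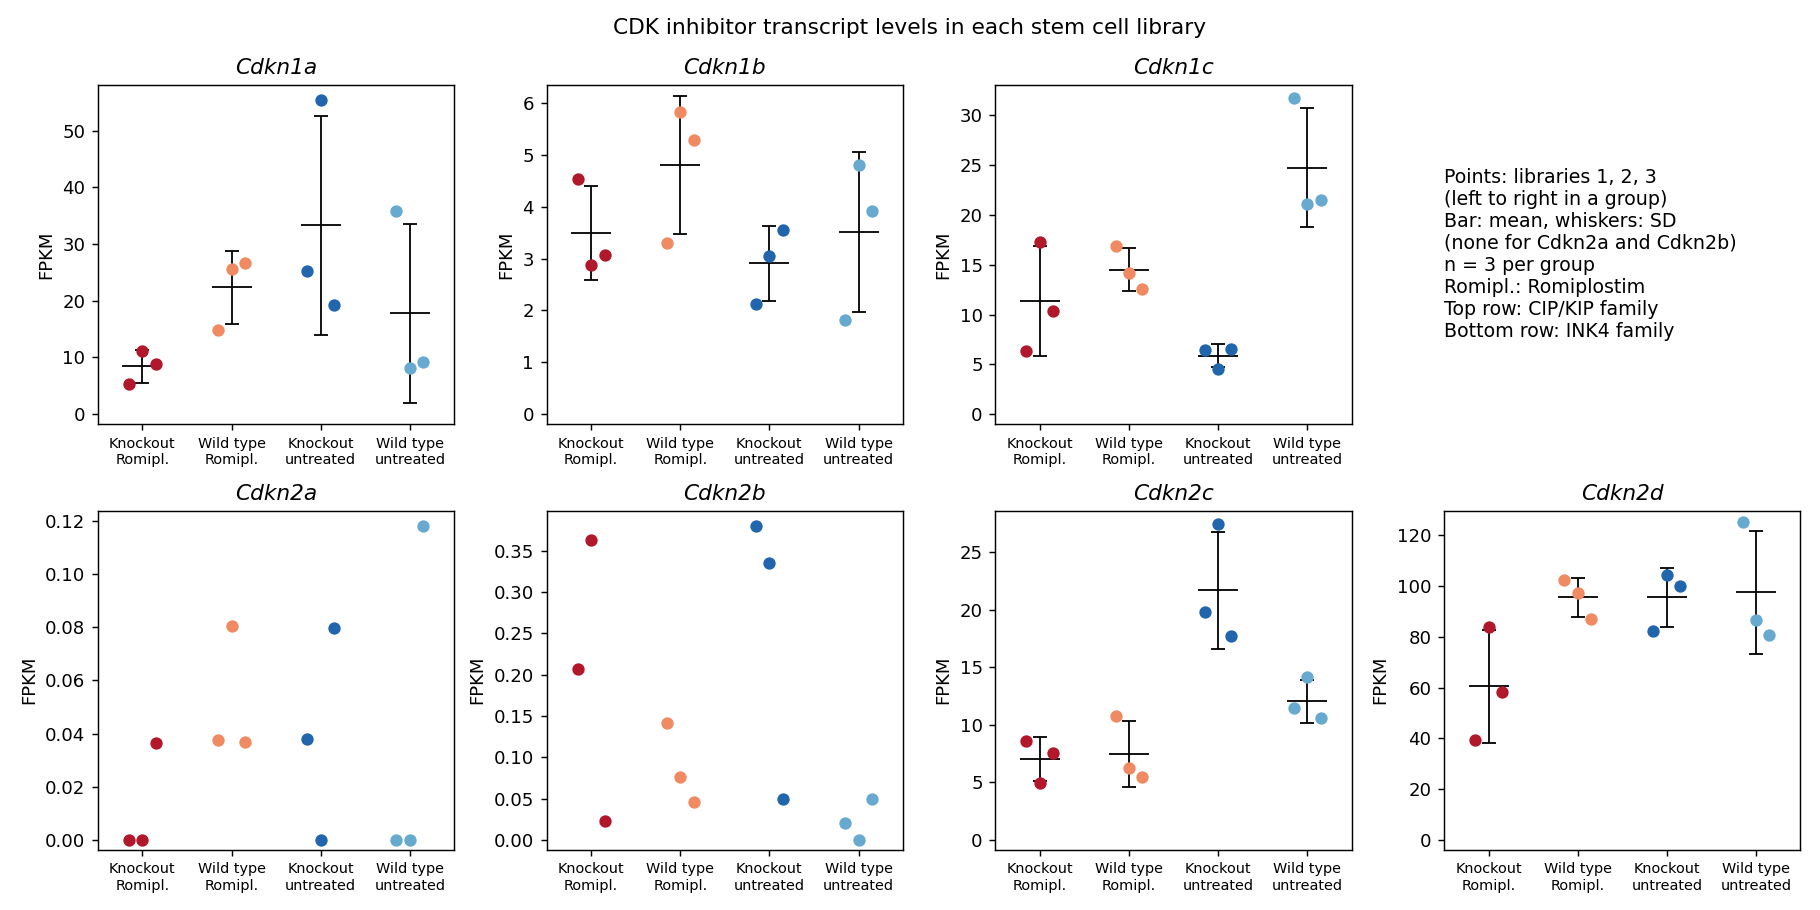
FPKM (linear axes) of the 7 CDK inhibitors in each of the 12 libraries; each point is 1 library, bars are means and whiskers SD (n = 3 per group), left out for Cdkn2a and Cdkn2b, which include values of 0. Cdkn1c is lowest in untreated knockout (4.54 to 6.55 FPKM), Cdkn2c highest there (17.7 to 27.4 FPKM), and Cdkn2a stays at or under 0.118 FPKM.

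Cdkn1a (ENSMUSG00000023067, chr17:29090976-29100727 on the plus strand, mm10) encodes p21, the inhibitor that p53 induces after DNA damage. Its level was 5.32, 11.1 and 8.92 FPKM in the 3 treated knockout libraries, and 14.9, 25.5 and 26.6 FPKM in treated wild type. It was 25.2, 55.4 and 19.3 FPKM in untreated knockout, against 35.9, 8.10 and 9.26 FPKM in untreated wild type. The treated knockout libraries lay below all libraries of treated wild type and of untreated knockout, while untreated wild type had 1 high library and a pair as low as treated knockout. Separation of 3 libraries from 3 was common, here and for the members below. Of all 12823 genes tested, 56.3% had no overlap between the untreated groups, 40.3% between the knockout groups and 25.1% between the treated groups. The mean was 8.43 ± 2.90 FPKM in treated knockout, 22.4 ± 6.49 in treated wild type, 33.3 ± 19.4 in untreated knockout and 17.7 ± 15.7 in untreated wild type (SD, n = 3 each, here and below). From high to low the order was untreated knockout, treated wild type, untreated wild type and treated knockout, and each neighbouring pair in it overlapped. Cdkn1a was the most variable of the members above the detection limit, with a 10.4-fold span over the 12 libraries. A provisional gene model on the opposite strand, AC167363.2, overlaps it, and the library kit does not mark the strand.

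Cdkn1b (ENSMUSG00000003031, chr6:134920401-134925513 on the plus strand) encodes p27, the inhibitor of Cdk2 that is controlled largely by protein breakdown. Treated knockout libraries had 4.53, 2.88 and 3.07 FPKM, and treated wild-type libraries 3.30, 5.82 and 5.29 FPKM. Untreated knockout libraries had 2.12, 3.05 and 3.55 FPKM, against 1.81, 4.81 and 3.91 FPKM in untreated wild type. The mean was 3.49 ± 0.900 FPKM in treated knockout, 4.80 ± 1.33 in treated wild type, 2.90 ± 0.722 in untreated knockout and 3.51 ± 1.54 in untreated wild type. All 4 groups overlapped, in the order treated wild type, untreated wild type, treated knockout and untreated knockout from high to low.

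Cdkn1c (ENSMUSG00000037664, chr7:143458339-143461050 on the minus strand) encodes p57, the CIP and KIP member that mouse genetics ties most closely to stem cell rest, and is imprinted, with expression from the maternal copy. It stood at 6.32, 17.2 and 10.4 FPKM in treated knockout and 16.8, 14.1 and 12.5 FPKM in treated wild type. Untreated knockout libraries had 6.48, 4.54 and 6.55 FPKM, against 31.7, 21.1 and 21.5 FPKM in untreated wild type. Every untreated wild-type library lay above every library of the other 3 groups, and the highest untreated knockout library was just above the lowest treated knockout library. The mean was 11.3 ± 5.52 FPKM in treated knockout, 14.5 ± 2.17 in treated wild type, 5.86 ± 1.14 in untreated knockout and 24.8 ± 6.01 in untreated wild type. From high to low the order was untreated wild type, treated wild type, treated knockout and untreated knockout, and only the first step in it was free of overlap. The antisense gene Gm44732 overlaps Cdkn1c, and reads of the pair cannot be told apart without strand.

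Cdkn2a (ENSMUSG00000044303, chr4:89274471-89294653 on the minus strand) encodes p16 and, in another reading frame, p19Arf, the proteins that accumulate in senescent cells. It was at 0, 0 and 0.0365 FPKM in treated knockout, and 0.0377, 0.0805 and 0.0368 FPKM in treated wild type. Untreated knockout had 0.0378, 0 and 0.0798 FPKM, against 0, 0 and 0.118 FPKM in untreated wild type. A value of 3 fragments corresponds to 0.0720 to 0.0924 FPKM of this gene, so that no group rose clearly over the limit, and 5 of 12 libraries were at 0. The non-zero values lay within 0.00220 of whole multiples of 1 step, but that step exceeds 1 fragment of the depth estimate, so steps of this gene are not read as fragments.

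Cdkn2b (ENSMUSG00000073802, chr4:89306299-89311039 on the minus strand), beside Cdkn2a on the same chromosome, encodes p15, an inhibitor of Cdk4 and Cdk6 that TGF-beta induces. Treated knockout had 0.207, 0.363 and 0.0229 FPKM, and treated wild type 0.142, 0.0757 and 0.0462 FPKM. Untreated knockout had 0.380, 0.335 and 0.0501 FPKM, against 0.0204, 0 and 0.0493 FPKM in untreated wild type. All 3 untreated knockout libraries exceeded all untreated wild-type libraries, but the lowest of the knockout and the highest of the wild type held 2 fragments each, and the treated groups overlapped the others. The smallest step of this gene was 0.997 fragments of the depth estimate. Counted in such steps, treated knockout held 27 fragments, treated wild type 11, untreated knockout 33 and untreated wild type 3. Every library lay within 0.0107 of a whole multiple of the step. Neither Cdkn2a nor Cdkn2b passed the filter of 1 FPKM in 3 libraries. In a fit without that filter, Cdkn2b of untreated knockout over untreated wild type had a log2 difference of 0.28 (adjusted p = 0.0956), and all other comparisons of both genes had adjusted p-values of 0.349 or more.

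Cdkn2c (ENSMUSG00000028551, chr4:109660876-109667189 on the minus strand) encodes p18, an INK4 inhibitor whose loss expands stem cells in mice. It stood at 8.59, 4.95 and 7.55 FPKM in treated knockout and 10.8, 6.23 and 5.45 FPKM in treated wild type. Untreated knockout libraries had 19.8, 27.4 and 17.7 FPKM, against 11.4, 14.2 and 10.6 FPKM in untreated wild type. Untreated knockout lay above all other libraries, untreated wild type above all treated libraries but 1, and the treated groups overlapped. The mean was 7.03 ± 1.87 FPKM in treated knockout, 7.48 ± 2.87 in treated wild type, 21.7 ± 5.11 in untreated knockout and 12.1 ± 1.86 in untreated wild type. From high to low the order was untreated knockout, untreated wild type, treated wild type and treated knockout.

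Cdkn2d (ENSMUSG00000096472, chr9:21288410-21291407 on the minus strand) encodes p19Ink4d, a further inhibitor of Cdk4 and Cdk6, known in mice for a role in megakaryocytes and in stem cells under stress. Treated knockout libraries had 39.4, 83.9 and 58.2 FPKM, and treated wild-type libraries 102, 97.2 and 87.1 FPKM. Untreated knockout had 82.4, 104 and 100.1 FPKM, against 125, 86.7 and 80.8 FPKM in untreated wild type. The treated knockout libraries were all below those of treated wild type, but 1 of them was within the range of both untreated groups. The mean was 60.5 ± 22.4 FPKM in treated knockout, 95.6 ± 7.80 in treated wild type, 95.6 ± 11.6 in untreated knockout and 97.6 ± 24.2 in untreated wild type, and the last 3 groups overlapped.

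The first comparison, untreated knockout over untreated wild type, asks how these genes differ where thrombopoietin is absent. Cdkn1c fell to a mean of 5.86 FPKM in the knockout, against 24.8 FPKM in wild type, and Cdkn2c rose to 21.7 FPKM in the knockout, against 12.1 FPKM in wild type. Cdkn1a, Cdkn1b and Cdkn2d did not pass the test. The change of Cdkn1c was -1.90 ± 0.29 on the log2(FPKM + 1) scale (SE; limma, Benjamini-Hochberg adjusted p = 0.000313), that of Cdkn2c 0.78 ± 0.25 (adjusted p = 0.0252), and all log2 changes below are on that scale, which understates those of low genes. So 1 of 5 tested members was higher and 1 lower, beside 22.1% higher and 23.0% lower of all 12823 genes tested, so the share of members called was close to the background. Markers of other cells moved in the same libraries, as given above. The median change of the 5 was -0.01, beside -0.03 for all tested genes. Cdkn1a differed by 1.04 ± 0.52 (adjusted p = 0.121), Cdkn1b by -0.16 ± 0.28 (adjusted p = 0.667) and Cdkn2d by -0.01 ± 0.24 (adjusted p = 0.977). The Cdkn1c call held under all 24 alternatives run, with changes of -2.05 to -1.72. That of Cdkn2c was lost without untreated knockout replicate 2 (0.61, adjusted p = 0.105), untreated wild-type replicate 1 (0.75, adjusted p = 0.0608) or untreated wild-type replicate 3 (0.70, adjusted p = 0.0820), with quantile normalization (0.67, adjusted p = 0.0664) and with no filter (adjusted p = 0.0509). Cdkn1a passed without untreated wild-type replicate 1, its 1 high library (1.68, adjusted p = 0.00873).

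Romiplostim over none in the wild type asks how these genes differ with the agonist where thrombopoietin is present. No member passed the test in this comparison (limma, 0 of 5, beside 1.84% of all genes tested in either direction), and 2 of 5 had an unadjusted p under 0.05. Those were Cdkn1c, with a difference of -0.72 ± 0.29 (adjusted p = 0.296) and groups that did not overlap, and Cdkn2c, with -0.66 ± 0.25 (adjusted p = 0.264). Of all genes tested, 26.8% had groups that did not overlap in this comparison. Cdkn1a differed by 0.59 ± 0.52 (adjusted p = 0.721) and Cdkn1b by 0.40 ± 0.28 (adjusted p = 0.616). The interval of Cdkn2d (-0.01; 95% interval -0.53 to 0.52) excludes a 2-fold change on this scale in either direction. Where libraries were weighted by their fit, 3 members passed, namely Cdkn1a (1.19), Cdkn1c (-0.65) and Cdkn2c (-0.78). That weighting raised the calls over all 12823 genes tested as well, to 1856 in place of 236.

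Romiplostim over none in the knockout compares these genes with and without the agonist where thrombopoietin is missing. The groups also differed in Y-linked genes and in markers of other cells. Cdkn2c fell to a mean of 7.03 FPKM in treated knockout, against 21.7 FPKM in untreated knockout, Cdkn1a to 8.43 FPKM in treated, against 33.3 FPKM in untreated knockout, and Cdkn2d to 60.5 FPKM in treated, against 95.6 FPKM in untreated knockout. The log2 changes were -1.50 ± 0.25 for Cdkn2c (adjusted p = 0.00151), -1.77 ± 0.52 for Cdkn1a (adjusted p = 0.0241) and -0.71 ± 0.24 for Cdkn2d (adjusted p = 0.0443). Cdkn1c differed by 0.76 ± 0.29 (adjusted p = 0.0650) and Cdkn1b by 0.20 ± 0.28 (adjusted p = 0.616). Thus 3 of 5 tested members were lower and 0 higher, beside 18.9% lower and 10.7% higher of all genes tested, and the median over the 5 was -0.71, beside -0.09 for all genes. In the same comparison 11 of 11 tested B cell genes, 10 of 10 macrophage genes and 11 of 14 myeloid genes fell, and 10 of 16 stem cell markers rose.

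The Cdkn2c call in treated against untreated knockout held under all 24 alternatives run (-2.06 to -1.28). For Cdkn1a it was lost without treated knockout replicate 1 (-1.50, adjusted p = 0.0698) or 3 (-1.83, adjusted p = 0.0574), without untreated knockout replicate 1 (-1.89, adjusted p = 0.0527) or 2 (-1.34, adjusted p = 0.0964), with no filter (adjusted p = 0.0574) and with a covariate for the sex read from Y-linked genes (-0.84, adjusted p = 0.494). That of Cdkn2d was lost in 15 of 24 alternatives: without treated knockout replicate 1 it was -0.44 (adjusted p = 0.135), and without any 1 of the libraries other than treated knockout replicate 2 and untreated wild-type replicate 1 the adjusted p lay between 0.0509 and 0.135. Cdkn1c passed without treated knockout replicate 1 (1.09, adjusted p = 0.00805) and under both other scalings (0.85 and 0.96, adjusted p = 0.0300 and 0.0126). The Y-linked genes split both knockout groups completely, so agonist and sex can be told apart only through the wild-type libraries.

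Treated knockout over treated wild type asks whether the genotypes still differ under the agonist. No member passed the test (limma, 0 of 5, beside 1.37% of all genes tested in either direction), and 2 of 5 had an unadjusted p under 0.05. Cdkn1a differed by -1.32 ± 0.52 (adjusted p = 0.196) and Cdkn2d by -0.71 ± 0.24 (adjusted p = 0.145), in both cases with treated knockout below treated wild type in every library. Groups without overlap were seen for 25.1% of all genes tested here. Cdkn1c differed by -0.42 ± 0.29 (adjusted p = 0.428), Cdkn1b by -0.36 ± 0.28 (adjusted p = 0.492) and Cdkn2c by -0.06 ± 0.25 (adjusted p = 0.923). The 95% interval of Cdkn2c was -0.61 to 0.50, and that of Cdkn1c -1.05 to 0.20. Without treated knockout replicate 2, Cdkn2d passed (-0.98, adjusted p = 0.0211).

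The interaction, the response to Romiplostim in the knockout minus that in the wild type, passed for 2 of 5 tested members. Cdkn1a had a difference of -2.35 ± 0.73 (adjusted p = 0.0491) and Cdkn1c of 1.48 ± 0.41 (adjusted p = 0.0315), so that 1 member was lower and 1 higher, beside 10.0% lower and 5.53% higher of all genes tested. Cdkn2c, the member with the lowest adjusted p for Romiplostim in the knockout, did not pass (-0.84 ± 0.36, adjusted p = 0.132), nor did Cdkn2d (-0.70 ± 0.34, adjusted p = 0.181) or Cdkn1b (-0.20 ± 0.39, adjusted p = 0.767). Both calls were close to the threshold. Cdkn1a lost it without any 1 library other than treated knockout replicate 2, untreated knockout replicate 3 and untreated wild-type replicate 1 (adjusted p = 0.0587 to 0.110), and Cdkn1c without treated knockout replicate 3, treated wild-type replicates 2 and 3, untreated knockout replicates 1 and 2, and untreated wild-type replicates 1 and 3 (adjusted p = 0.0502 to 0.0782). Both were lost with the sex covariate (Cdkn1a -1.42, adjusted p = 0.357; Cdkn1c 1.47, adjusted p = 0.153), with no filter (adjusted p = 0.111 and 0.0703) and with the replicate number as a block (adjusted p = 0.0684 and 0.0506). With that block in the wild-type libraries alone, where same-numbered libraries deviated together, Cdkn1a was lost (adjusted p = 0.0741) and Cdkn1c passed (adjusted p = 0.0450). Cdkn1a was lost too with quantile normalization (adjusted p = 0.0523) and with no trend (adjusted p = 0.0521). Without treated knockout replicate 2, Cdkn2d passed as well (-0.97, adjusted p = 0.0351).

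Treated knockout over untreated wild type asks how far the treated mutant stands from the normal state. Cdkn1c was lower, at 11.3 FPKM in treated knockout, against 24.8 FPKM in untreated wild type (-1.14 ± 0.29, adjusted p = 0.0283), and the groups did not overlap. This made 1 of 5 tested members lower and 0 higher, beside 7.52% lower and 2.93% higher of all genes tested. Cdkn2c differed by -0.72 ± 0.25 (adjusted p = 0.0885; groups apart), Cdkn2d by -0.72 ± 0.24 (adjusted p = 0.0765), Cdkn1a by -0.73 ± 0.52 (adjusted p = 0.373) and Cdkn1b by 0.04 ± 0.28 (adjusted p = 0.936). These groups did not overlap for 27% of all genes tested. The Cdkn1c call was lost without treated knockout replicate 1 (-0.81, adjusted p = 0.0792) or 3 (adjusted p = 0.0663), without untreated wild-type replicate 1 (adjusted p = 0.0944), 2 (adjusted p = 0.0562) or 3 (adjusted p = 0.0599), with the sex covariate (adjusted p = 0.145), with no filter (adjusted p = 0.0639) and in a fit of the 2 groups alone (adjusted p = 0.0891), and Cdkn2d passed without treated knockout replicate 2 (-0.99, adjusted p = 0.0102). In the same comparison 6 of 11 tested B cell genes, 6 of 13 erythroid genes and 6 of 8 T and NK cell genes were higher and 5 of 16 stem cell markers lower, and their part in this result was not tested. The comparisons share groups, so their results are not independent of each other.

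**Figure D2:**
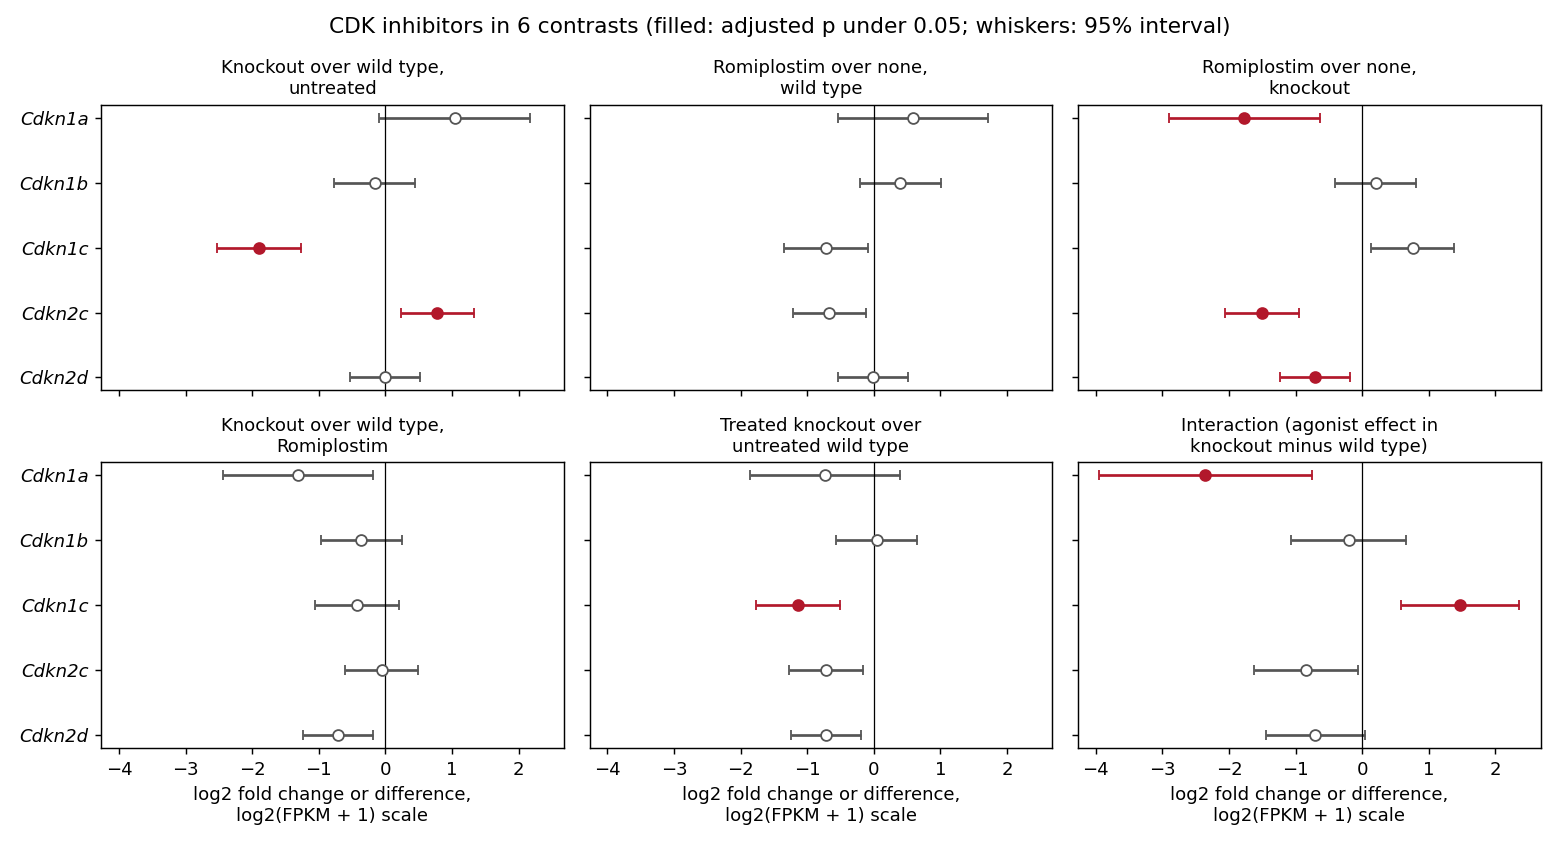
Log2 differences on the log2(FPKM + 1) scale (x axis) of the 5 tested CDK inhibitors (y axis) in 6 comparisons, with 95% intervals from the fit to all 12 libraries; filled points have an adjusted p under 0.05. Cdkn1c is the member farthest below 0 without treatment (-1.90), and Cdkn1a (-1.77), Cdkn2c (-1.50) and Cdkn2d (-0.71) are below 0 with Romiplostim in the knockout.

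Set against each other, Cdkn1c and Cdkn2c give each library a ratio that does not depend on its scaling. The ratio of Cdkn1c to Cdkn2c was 0.736, 3.48 and 1.37 in treated knockout, and 1.57, 2.27 and 2.30 in treated wild type. It was 0.327, 0.165 and 0.369 in untreated knockout, against 2.77, 1.49 and 2.03 in untreated wild type. Untreated knockout stood below all other libraries, and the other 3 groups overlapped. The pair is the member called lower and the member called higher in untreated knockout over untreated wild type. Neither gene overlapped between those groups, so the ratio had to set them apart and adds no support to either call. With 3 libraries against 3, an exact two-sided permutation test cannot give less than 0.1, so no test of this ratio is given. By share of the summed member FPKM, Cdkn1c made up 9.82% to 14.3% in treated knockout, 9.15% to 11.3% in treated wild type, 2.33% to 4.75% in untreated knockout and 15.4% to 17.0% in untreated wild type.

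**Figure D3:**
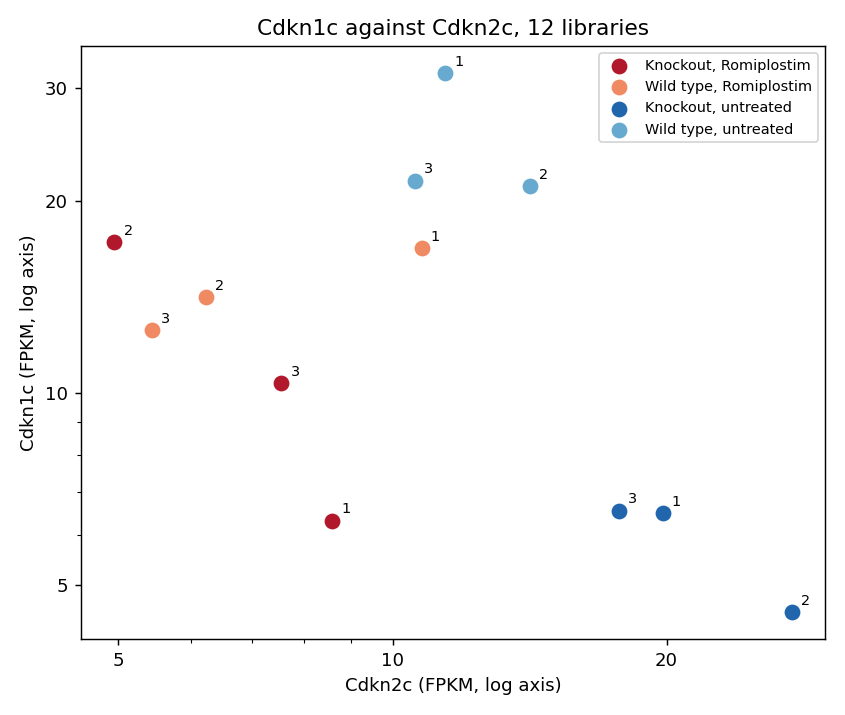
Cdkn1c against Cdkn2c (FPKM, both axes logarithmic); each point is 1 of the 12 libraries, numbered by replicate and coloured by group. The 3 untreated knockout libraries sit apart at high Cdkn2c (17.7 to 27.4 FPKM) and low Cdkn1c (4.54 to 6.55 FPKM). These are the members called higher and lower in untreated knockout over untreated wild type.

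Within groups, the members did not vary alike. As deviations from the group mean over 12 libraries, Cdkn1c and Cdkn2d had a Pearson r of 0.85 and Cdkn1a and Cdkn2d one of 0.63, while Cdkn1b ran against Cdkn1c (-0.67), Cdkn2d (-0.57) and Cdkn1a (-0.51). In treated knockout, Cdkn1a, Cdkn1c and Cdkn2d were all lowest in replicate 1 and highest in replicate 2, and in untreated wild type all 3 were highest in replicate 1. Treated knockout replicate 2 and untreated wild-type replicate 1 were also the deepest libraries (35.5 M and 35.2 M fragments), and the part of depth in this was not tested. These are descriptions of 12 libraries that share groups and runs.

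The protein-coding genes whose log2(FPKM + 1) over the 12 libraries was most like that of each member were as follows, by Pearson r. Cdkn1c had close companions in Ldhb, a subunit of lactate dehydrogenase, and Iqck, with an r of 0.98 each. Cdkn2d was most like Anks3 (0.96), 1600014C10Rik (0.95) and Lrrc57 (0.95), and Cdkn1b most like Mrpl43 (0.91), Hivep1 (0.89) and Parp14 (0.89). Cdkn1a was most like Gngt2 (0.90), Arid5a (0.88) and Aldh1b1 (0.87), and Cdkn2c most like Ankrd6, Hpgds and Gtf2a1 (0.90 each). The 12 points share 4 groups, their runs and the sort, and the values describe likeness of level only.

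Of the kinases and cyclins that the inhibitors bind, 7 of 12 tested genes were higher and 1 lower in untreated knockout than in untreated wild type (median 0.79, beside -0.03 for all tested genes), beside 22.1% and 23.0% of all tested genes. Ccne1, the cyclin E1 that activates Cdk2, averaged 173 ± 8.96 FPKM in untreated knockout and 22.8 ± 5.39 FPKM in untreated wild type (2.90 ± 0.28, adjusted p = 2.01e-05). The mitotic cyclin Ccnb1 rose to 275 ± 83.8 FPKM in untreated knockout, against 66.3 ± 10.0 FPKM in untreated wild type. Ccnd2, the D-type cyclin that cytokines induce, was the 1 gene that fell, to 45.3 ± 0.853 FPKM in untreated knockout, against 115 ± 5.99 FPKM in untreated wild type (-1.33 ± 0.16, adjusted p = 6.77e-05). In treated against untreated knockout, 4 of the 12 fell and 1 rose (median -0.34, beside -0.09), beside 18.9% and 10.7% of all tested genes, and with the sex covariate 0 fell and 0 rose. Ccne1 fell to 63.4 ± 31.5 FPKM in treated knockout (-1.54 ± 0.28, adjusted p = 0.00206) and Ccnd2 rose to 75.1 ± 18.7 FPKM (0.68 ± 0.16, adjusted p = 0.00764), against the untreated levels above. Both calls of these cyclins were lost with the sex covariate (adjusted p = 0.0722 for Ccne1 and 0.200 for Ccnd2).

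Among the RB family and E2F factors, 7 of 15 were higher and 1 lower in untreated knockout than in untreated wild type (median 0.19), beside 22.1% and 23.0% of all tested genes. E2f2, an activating E2F, averaged 13.6 ± 3.71 FPKM in untreated knockout and 1.62 ± 0.286 FPKM in untreated wild type (2.45 ± 0.20, adjusted p = 8.67e-06). Rb1, which encodes the retinoblastoma protein, averaged 27.1 ± 0.681 FPKM in untreated knockout and 11.3 ± 1.82 FPKM in untreated wild type (1.20 ± 0.17). E2f8, a repressor late in the cycle, averaged 18.8 ± 3.41 FPKM in untreated knockout and 4.74 ± 1.18 FPKM in untreated wild type. In treated against untreated knockout 6 of the 15 fell and 0 rose (median -0.34), beside 18.9% and 10.7% of all tested genes, among them E2f2, at 2.36 ± 0.625 FPKM in treated knockout (-2.10 ± 0.20, adjusted p = 5.07e-05), and Rb1, at 13.0 ± 2.35 FPKM (-1.02 ± 0.17). With the sex covariate 1 of the 15, E2f2, fell, and Rb1 had an adjusted p of 0.0742.

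Markers of DNA synthesis and mitosis were also counted. In untreated knockout over untreated wild type 13 of 18 rose and 0 fell (median 0.82, beside -0.03 for all tested genes; 22.1% and 23.0% of all of them), among them Plk1 (97.0 ± 20.2 FPKM in untreated knockout against 21.2 ± 3.65 FPKM in untreated wild type), Aurka, Rrm2 and Aurkb. With Romiplostim in the knockout 12 of 18 fell and 0 rose (median -0.67, beside -0.09), beside 18.9% and 10.7% of all tested genes. Plk1, a mitotic kinase, stood at 51.7 ± 5.13 FPKM in treated knockout (-0.88 ± 0.17, adjusted p = 0.00376), and Rrm2, a subunit of ribonucleotide reductase, at 177 ± 38.2 FPKM in treated knockout, against 559 ± 144 FPKM in untreated knockout (-1.65 ± 0.23, adjusted p = 0.000494). The count of 12 was 9 with median-of-ratios scaling and 1 with the sex covariate, under which Plk1 had an adjusted p of 0.0648, and the markers of B cells and macrophages fell in the same libraries, at 11 of 11 and 10 of 10 tested genes.

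Genes for the breakdown of CIP and KIP proteins were higher at 6 of 14 and lower at 1 of 14 in untreated knockout than in untreated wild type (median 0.53), beside 22.1% and 23.0% of all tested genes. Ubac1, a subunit of a ligase for p27, rose to 271 ± 10.1 FPKM in untreated knockout, against 110 ± 17.4 FPKM in untreated wild type, and Skp1a, a core subunit of the ligase with Skp2, fell to 679 ± 70.3 FPKM in untreated knockout, against 1294 ± 66.4 FPKM in untreated wild type (-0.93 ± 0.12, adjusted p = 0.000131). In treated against untreated knockout 4 fell and 3 rose (median -0.39), beside 18.9% and 10.7% of all tested genes, and 1 fell and 1 rose with the sex covariate. Skp1a stood at 1130 ± 82.5 FPKM in treated knockout (0.74 ± 0.12, adjusted p = 0.00136; 0.29, adjusted p = 0.270 with quantile normalization). Other CDK regulators rose at 5 of 13 and fell at 2 of 13 in untreated knockout (median 0.21), beside the same 22.1% and 23.0%. Cdc25b, a phosphatase that activates mitotic kinase, stood at 49.5 ± 11.0 FPKM in untreated knockout, against 11.3 ± 4.31 FPKM in untreated wild type (2.08 ± 0.28, adjusted p = 0.000170). It fell to 16.7 ± 5.09 FPKM in treated knockout (-1.54 ± 0.28, adjusted p = 0.00252), 1 of 4 that fell there, while 1 rose (median 0.0020), beside 18.9% and 10.7%. With the sex covariate 1 of the 13 fell and 0 rose (median -0.08).

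The p53 pathway induces Cdkn1a. In untreated knockout over untreated wild type 5 of 18 tested genes rose and 2 fell, beside 22.1% and 23.0% of all genes, and with Romiplostim in the knockout 3 fell and 2 rose, beside 18.9% and 10.7%, so these shares were close to the background or below it. With the sex covariate 0 fell and 0 rose. The medians were 0.11 and -0.19, the second 0.0012 with quantile normalization. Mdm2, the ligase that p53 both induces and is degraded by, averaged 41.8 ± 2.82 FPKM in untreated knockout and 29.9 ± 3.37 FPKM in untreated wild type (0.47 ± 0.14, adjusted p = 0.0156). In treated knockout it fell to 28.4 ± 5.60 FPKM, against the 41.8 ± 2.82 FPKM of untreated knockout (-0.56 ± 0.14, adjusted p = 0.0117; 0.0782 with the sex covariate). Pmaip1, a death-promoting target, rose to 1.90 ± 1.08 FPKM in untreated knockout, against 0.170 ± 0.0497 FPKM in untreated wild type, and Perp, a membrane protein, fell to 1.50 ± 0.751 FPKM in untreated knockout, against 4.18 ± 0.970 FPKM in untreated wild type.

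Repressors of the INK4 genes, the Polycomb proteins and Id factors, were higher at 5 of 19 and lower at 3 of 19 in untreated knockout (median 0.13), beside 22.1% and 23.0% of all tested genes, so the shares were not far from the background. Id3, which blocks basic helix-loop-helix factors, averaged 122 ± 57.4 FPKM in untreated knockout and 3.91 ± 1.80 FPKM in untreated wild type (4.56 ± 0.55, adjusted p = 7.87e-05). Hmga2, a chromatin protein that in mouse neural stem cells represses Cdkn2a, stood at 1.52 ± 0.113 FPKM in untreated knockout, against 7.71 ± 0.980 FPKM in untreated wild type (-1.79 ± 0.21, adjusted p = 6.50e-05). In treated against untreated knockout 5 fell and 2 rose (median -0.35), beside 18.9% and 10.7% of all tested genes, which is again not far from the background, and 2 fell and 1 rose with the sex covariate. Among them were Id3 at 10.0 ± 8.92 FPKM in treated knockout (-3.69 ± 0.55, adjusted p = 0.000729) and Hmga2 at 4.72 ± 1.82 FPKM (1.13 ± 0.21, adjusted p = 0.00250). The call of Hmga2 was lost with the sex covariate (adjusted p = 0.0998).

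Signalling and transcription factors linked to the control of CIP and KIP genes were higher at 4 of 22 and lower at 7 of 22 in untreated knockout than in untreated wild type. The median was -0.05, and 0.02 with median-of-ratios scaling, and the counts stand beside 22.1% and 23.0% of all tested genes. Foxo1, a forkhead factor that raises Cdkn1b, rose to 14.7 ± 4.78 FPKM in untreated knockout, against 4.77 ± 0.420 FPKM in untreated wild type (1.40 ± 0.25, adjusted p = 0.000936), and the stem cell factor Meis1 fell to 44.9 ± 13.6 FPKM in untreated knockout, against 124 ± 11.0 FPKM in untreated wild type (-1.48 ± 0.27, adjusted p = 0.00116). In treated against untreated knockout 5 of 22 fell and 0 rose (median -0.24), beside 18.9% and 10.7% of all tested genes, and 3 fell and 0 rose with the sex covariate. The shares of this list lay near the background in both comparisons, apart from the absence of genes that rose in the second. Foxo1 then stood at 3.68 ± 1.57 FPKM in treated knockout (-1.76 ± 0.25, adjusted p = 0.000546), and Hes1, a Notch target, at 4.76 ± 2.49 FPKM in treated knockout, against 28.2 ± 11.2 FPKM in untreated knockout (-2.35 ± 0.30, adjusted p = 0.000316).

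The neighbours of Cdkn1c in its imprinted domain on chromosome 7 were lower at 5 of 10 tested genes and higher at 2 of 10 in untreated knockout, out of 17 listed (median -0.55), beside 23.0% lower and 22.1% higher of all tested genes. Phlda2, which shares maternal expression with Cdkn1c, fell to 10.8 ± 1.42 FPKM in untreated knockout, against 30.7 ± 5.60 FPKM in untreated wild type (-1.41 ± 0.16, adjusted p = 5.44e-05), and Slc22a18, also maternally expressed, to 4.92 ± 1.16 FPKM in untreated knockout, against 15.3 ± 1.11 FPKM in untreated wild type (-1.48 ± 0.21, adjusted p = 0.000198). Cars, further along the domain, rose to 82.6 ± 9.85 FPKM in untreated knockout, against 41.0 ± 12.9 FPKM in untreated wild type. With Romiplostim in the knockout Phlda2 rose to 17.5 ± 2.85 FPKM in treated knockout (0.64 ± 0.16, adjusted p = 0.0120) and Slc22a18 to 8.84 ± 2.87 FPKM (0.71 ± 0.21, adjusted p = 0.0241), while Cars fell to 45.0 ± 6.40 FPKM (-0.87 ± 0.20, adjusted p = 0.00878). All 3 calls were lost with the sex covariate (adjusted p = 0.137, 0.253 and 0.210), and in all 3 genes the sign stayed the same. In this comparison 3 of 10 neighbours rose and 2 fell, beside 10.7% and 18.9% of all genes (0 and 0 with the sex covariate), with a median of -0.02 that was 0.12 with quantile normalization.

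**Figure D4:**
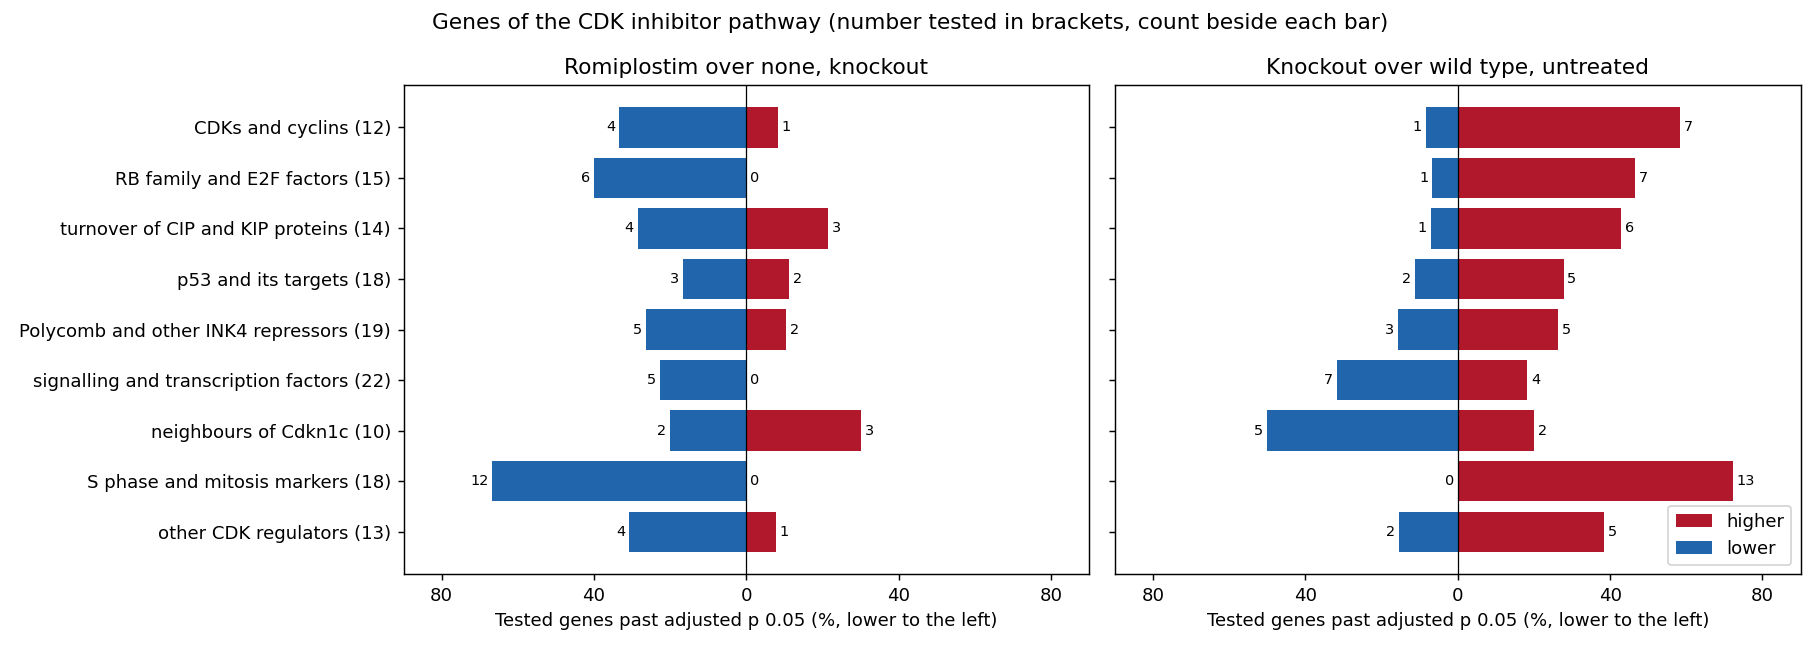
Share of the tested genes of 9 related lists (percent, x axis) that passed an adjusted p of 0.05, higher to the right and lower to the left, with Romiplostim in the knockout (left) and in untreated knockout over untreated wild type (right); counts stand at the bars. The S phase and mitosis markers reach 13 of 18 higher without treatment and 12 of 18 lower with Romiplostim.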

How the data were processed

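Sorted stem cell RNA went through a SMARTer Ultra Low kit and paired-end sequencing, per the labels' protocols; this kind of kit keeps no strand information. FPKM values calculated by the authors make up the deposited table; TopHat2, Cufflinks 2.2.1 and mm10 are named in the submitters' processing notes, and the annotation release is not given in the sources used here. Of 35275 identifiers, 34490 matched GENCODE M21. Depth was estimated from the steps of low FPKM values on the merged exon length; 46.0% to 52.1% of values under 50 fragments were whole within 0.05, so it is an estimate, and floors of 3 fragments cover counting error only.

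Values were taken as log2(FPKM + 1). Genes with at least 1 FPKM in at least 3 libraries (12823) were fitted in limma 3.58.1 (R 4.3.3) as means of the 4 groups over all 12 libraries, with an intensity trend, after a check on simulated data. Tests were two-sided, adjusted by Benjamini-Hochberg within each of 6 comparisons, with 0.05 as threshold. No fit drops a library unless named. The members and the related lists were chosen with earlier results of these data known. The 5 tested members are named in every comparison. Cdkn2a and Cdkn2b, which did not pass the filter, are described apart, with the fit that has no filter. Of each related list, at most 4 genes are named, those with the smallest adjusted p in untreated knockout over untreated wild type; the 3 most correlated protein-coding genes are named per member, except 1 that is not reported here. The labels do not say that replicate numbers pair libraries. Of their deviations from group means, same-numbered libraries of treated and untreated wild type had correlations of 0.12, 0.38 and 0.40. In each of the 5 other pairs of groups at most 2 of 3 correlations were over 0.1, and libraries of unlike number reached 0.32. Wild-type libraries 1 and 2 differed in summed Y-linked level (untreated 90.0 and 0.547 FPKM, treated 0.0886 and 74.0 FPKM). These values do not settle whether libraries are paired. The main fit has no block, and the number was a block only in alternatives. Other settings tried were pseudocounts, low-value filters, scalings, a fit with no trend, subsets and weights of libraries, and covariates for replicate number and sex.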

Additional observations from a re-analysis of the deposited data

Results flagged for a closer look

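The response to Romiplostim differed between the genotypes for 2 members, by a test of the difference itself. For Cdkn1a it was -2.35 (log2, knockout minus wild type), with a change of -1.77 in the knockout and a difference of 0.59 in the wild type that did not pass. For Cdkn1c it was 1.48, with differences of 0.76 in the knockout and -0.72 in the wild type, neither of which passed. In both cases the test used all 12 libraries. The Cdkn1a call was lost in 15 of 24 other settings and that of Cdkn1c in 10 of 24, both of them with the sex covariate, with no filter and with the replicate block. The treated and untreated knockout libraries also differed in Y-linked genes and in markers of B cells and macrophages. With the sex covariate the values were -1.42 for Cdkn1a and 1.47 for Cdkn1c (adjusted p = 0.357 and 0.153), and the part of the other cells was not tested.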

How the results depend on the processing

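Of the alternatives to the 6 counts, 110 stayed within 1.5 times of the reported count and 41 did not, and of the alternatives to single changes 621 kept direction and side of the threshold, 59 lost the call, 19 gained one and 20 changed sign. Leaving out 1 library each gave 1 to 2 calls in untreated knockout over untreated wild type, 1 to 3 with Romiplostim in the knockout, 0 to 1 in treated knockout over treated wild type, 0 to 3 for the interaction and 0 to 2 in treated knockout over untreated wild type. With no filter there was 1 call in untreated knockout over untreated wild type, 1 with Romiplostim in the knockout, 0 for the interaction and 0 in treated knockout over untreated wild type. Requiring a 2-fold change left 1 in the first comparison, and quantile normalization 1 there and 1 for the interaction. Array weights gave 3 calls in wild type with Romiplostim, 3 in treated knockout over treated wild type and 2 in treated knockout over untreated wild type. Over all genes those weights gave 1856, 3059 and 3290 calls in the same comparisons, in place of 236, 176 and 1340. The sex covariate left 1 with Romiplostim in the knockout, 0 for the interaction and 0 in treated knockout over untreated wild type, and over all genes 770 calls in place of 3797 with Romiplostim in the knockout. With treated knockout replicate 2 and untreated knockout replicate 3 both left out there was 1 call in treated knockout over treated wild type (1755 in place of 176 over all genes) and 2 in treated knockout over untreated wild type. Fitting only the groups compared gave 0 in treated knockout over untreated wild type, and no trend gave 1 for the interaction. The causes were not tested.

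The libraries of different groups share replicate numbers. Only between treated and untreated wild type did all 3 same-numbered pairs have correlations over 0.1, and whether these libraries are paired is not known. In the other comparisons of groups not every pair deviated together (-0.19 to 0.19). With a replicate block across all groups 0 members passed in the interaction (2 without it), and Cdkn2d was lost with Romiplostim in the knockout (adjusted p = 0.0559). With a replicate block in wild-type libraries only, added after seeing the data, 1 passed in the interaction and 0 with Romiplostim in the wild type. Neither block changed any other call of a member.

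The values that changed sign were those near 0. Cdkn2d in untreated knockout over untreated wild type was 0.058 with median-of-ratios scaling, 0.17 with array weights and -0.13 to 0.18 without 1 library; with Romiplostim in the wild type it was 0.052, 0.12 and -0.13 to 0.19. Cdkn2c in treated knockout over treated wild type was 0.045 with median-of-ratios scaling, 0.037 with quantile normalization, 0.19 with array weights, 0.15 without the library pair and -0.23 to 0.21 without 1 library. Cdkn1b was -0.47 to 0.056 without 1 library in untreated knockout over untreated wild type, and 0.015 without the library pair and -0.42 to 0.11 without 1 library for the interaction. In treated knockout over untreated wild type it was -0.24 with array weights and -0.27 to 0.26 without 1 library.

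Over all genes, quantile normalization gave a median change of 0.07 with Romiplostim in the knockout in place of -0.09, and 58.2% of calls higher in place of 36.3% (47.5% with median-of-ratios scaling). Cdkn2a was at 0 in 5 of 12 libraries, and Cdkn2b had 74 fragments in all. The libraries with Cdkn2a at 0 include the deepest, treated knockout replicate 2 and untreated wild-type replicate 1. The part of depth in these low values was not tested.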
